A study of Mus musculus with 6 samples.

Results

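The receptor chains for interleukin-4 (IL-4) and interleukin-13 (IL-13) and their transcription factor STAT6 were followed at the transcript level in libraries labelled as mouse chondrocytes. The 5 genes were Il13ra2, Il13ra1, Il4ra, Il2rg and Stat6, taken as the rows of the deposited count table that bear these symbols, and all 5 were found among its 23867 rows. Bulk RNA sequencing covered 3 libraries of chondrocytes, the cells that make cartilage, from mice whose genotype label joins a knockout of Mfn2 with Col2a1, and 3 libraries of chondrocytes from wild-type mice. The knockout columns are headed CRE1, CRE2 and CRE3, and neither a Cre construct nor the cells it acts in are described in the sources used here. The same sources do not give age, sex or treatment, nor whether each library stands for its own animal, pool or culture. The p-values below therefore measure the spread between these libraries, which may be technical. Mfn2 encodes mitofusin 2, a protein that fuses mitochondria and tethers them to the endoplasmic reticulum, and the series title places the comparison in work on osteoarthritis.

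IL-4 and IL-13 are cytokines of type 2 immunity that share receptor chains. Il4ra binds IL-4 and pairs either with Il2rg, the common gamma chain of leukocytes, into the type I receptor, or with Il13ra1 into the type II receptor, which takes both cytokines and is the form found on most cells outside the blood lineages. JAK1, JAK2, JAK3 and TYK2 bound to these chains phosphorylate STAT6, which then enters the nucleus. Il13ra2 binds IL-13 tightly but has a short cytoplasmic tail without docking sites for STAT6, and it has long been regarded as a decoy, in mice also as a soluble form. In cartilage, IL-4 and IL-13 are known mainly for restraining the effects of inflammatory cytokines on chondrocytes.

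Total counts ranged over 31481779 to 37814723 in the knockout libraries and 39267487 to 40152687 in wild-type ones. Mfn2 was lower in each knockout library, at 56.5 to 64.0 CPM (counts scaled to library size), with 106 to 108 CPM in wild-type ones. Across all genes, 15028 were tested with edgeR's quasi-likelihood test and 62.7% of them were called, with 0.05 as the limit on the adjusted p (Benjamini-Hochberg). TMM scaling was used for the CPM values and for edgeR where no other scaling is named. With it 4607 genes were called higher and 4823 lower. With total counts as the only scaling the numbers were 2789 and 7627, with a median shift of the log2 fold change of −0.209. The libraries labelled as chondrocytes expressed Col2a1, the main cartilage collagen, in both groups, at 509 ± 29.0 CPM in knockout libraries and 3397 ± 71.3 CPM in wild-type ones (SD, n = 3 each). Of 12 chondrocyte markers, 11 were called lower in knockout cells, where 32.1% of all tested genes were.

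The receptor genes did not move as a unit. Il13ra2 was about 49.2-fold higher in knockout cells, Il13ra1 3.40-fold and Il4ra 3.23-fold higher, Stat6 1.36-fold higher, and Il2rg 5.86-fold lower. By the call rule across all genes, 4 of the 5 were called higher, where 30.7% of all tested genes were, and 1 lower, where 32.1% were. In all 5 the knockout libraries lay wholly above or wholly below the wild-type libraries, as they did in 67.1% of the tested genes (32.3% above and 34.8% below). The 5 genes were chosen by their fold changes in this same contrast, so these values are a description, nothing is read from the counts and no test is given. All 5 passed the filter on low counts, with at least 52 counts in every library.

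The sequences before the RefSeq transcription start of the 3 receptor chains that were higher in knockout cells are shown for comparison, as 250 bases each from RefSeq on GRCm38.p6, which precedes the build GRCm39 named for these data. They are chrX:147429193-147429442 on the minus strand, chrX:36111858-36112107 on the plus strand and chr7:125552021-125552270 on the plus strand, and all 5 genes matched an entry by symbol. Capitals mark the motifs searched, and bases run 5′ to 3′ toward the start.
Il13ra2: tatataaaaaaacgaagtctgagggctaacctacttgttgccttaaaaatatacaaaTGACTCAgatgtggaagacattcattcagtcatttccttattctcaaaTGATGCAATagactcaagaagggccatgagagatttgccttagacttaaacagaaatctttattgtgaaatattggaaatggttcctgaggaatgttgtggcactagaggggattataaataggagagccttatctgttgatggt
Il13ra1: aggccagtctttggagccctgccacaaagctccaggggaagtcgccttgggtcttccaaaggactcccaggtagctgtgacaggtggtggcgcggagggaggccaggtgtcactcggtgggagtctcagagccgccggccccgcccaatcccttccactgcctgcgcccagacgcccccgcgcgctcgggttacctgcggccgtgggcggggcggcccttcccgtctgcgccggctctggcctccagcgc
Il4ra: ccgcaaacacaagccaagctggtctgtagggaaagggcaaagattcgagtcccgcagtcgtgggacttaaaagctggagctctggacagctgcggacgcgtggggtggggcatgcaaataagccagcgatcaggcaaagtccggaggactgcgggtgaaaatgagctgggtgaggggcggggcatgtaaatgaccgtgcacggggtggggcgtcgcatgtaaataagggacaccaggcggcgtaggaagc
Each window was searched on both strands for the STAT6 pattern TTCNNNNGAA, the pattern of other STATs TTCNNNGAA, the AP-1 pattern TGANTCA and the composite C/EBP-ATF pattern TGATGNAAN, where N is any base. The STAT patterns differ in spacing and can overlap. Il13ra2 held TGACTCA, whose first base lies 193 bases before the start, and TGATGCAAT, whose first base lies 145 bases before it. Over 32851 RefSeq promoter windows of the same length, 6.75% held the AP-1 pattern and 3.44% the composite one. None of the 5 windows held TTCNNNNGAA or TTCNNNGAA, which 5.85% and 7.02% of all windows held. These patterns were chosen with the sequences in view, and a match is a string of letters, not a shown binding site. The windows differed in composition, with a G and C content of 36% for Il13ra2, 70.8% for Il13ra1 and 59.6% for Il4ra.

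Il13ra2, the decoy chain, reached the level of the signalling chains Il13ra1 and Il4ra in the knockout libraries. In the wild-type libraries it was the lowest of the 5 genes. It had 117, 148 and 143 CPM in libraries CRE1 to CRE3, against 2.49, 2.08 and 3.73 CPM in wild-type libraries 1, 2 and 3. The lowest knockout library thus stood far above the highest wild-type library. Means were 136 ± 16.5 CPM in knockout cells and 2.77 ± 0.855 CPM in wild-type cells (SD, n = 3 each), a log2 fold change of 5.62 (standard error, SE, 0.129). The wild-type values rest on 88 to 161 counts a library, so Il13ra2 was detected in every wild-type library but with a wide spread, and wild-type library 3 stood above the other two. Its log2 fold change ranked 21 among all 15028 tested genes, counted from the highest.

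Il13ra1, the chain that binds IL-13 and joins Il4ra in the type II receptor, was higher in every knockout library. It stood at 215, 225 and 231 CPM in CRE1, CRE2 and CRE3 and at 68.7, 64.5 and 63.8 CPM in the wild-type libraries. The log2 fold change was 1.77 (SE 0.041), with means of 224 ± 8.34 CPM in knockout cells and 65.7 ± 2.65 CPM in wild-type cells (SD, n = 3 each). Il4ra, the shared signalling chain that carries the STAT6 docking sites, was higher by nearly the same factor. It had 212, 208 and 214 CPM in the knockout libraries and 65.0, 66.1 and 65.2 CPM in the wild-type libraries, a log2 fold change of 1.69 (SE 0.035). The libraries of each group lay within a few CPM of each other for this gene and the groups stood far apart.

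Both chains of the type II receptor were higher by a similar factor, and their ratio overlapped between the groups. On the FPKM scale, which divides by gene length, Il4ra over Il13ra1 was 0.673 ± 0.026 in knockout cells and 0.710 ± 0.032 in wild-type cells (SD, n = 3 each), and the ranges overlapped. The sum of Il4ra and Il13ra1 was 93.6 ± 2.49 FPKM in knockout cells and 32.5 ± 0.653 FPKM in wild-type cells. Deposited FPKM values rest on column totals and not on TMM factors, so group differences in FPKM and in CPM are on different scales. In bulk RNA a change in the number of cells that make a transcript and a change in the amount per cell cannot be told apart, here and in all values below.

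Il2rg, the common gamma chain of the type I receptor, was the only one of the 5 that was lower in knockout cells. Its level was 2.30, 1.47 and 2.56 CPM in libraries CRE1 to CRE3, against 11.7, 12.8 and 12.1 CPM in the wild-type libraries. The knockout values rest on 52 to 77 counts a library and the wild-type values on 501 to 542. The log2 fold change was −2.55 (SE 0.153), and it came to −2.31 with CRE2 left out. All 16 macrophage markers were called lower over the same libraries, where 32.1% of all tested genes were. Their median log2 fold change was −4.55, and they summed to 328 to 339 CPM in knockout cells against 3014 to 3042 CPM in wild-type cells. Cx3cr1, Aif1 and Cd163, picked out after their counts were seen, passed the filter through their wild-type libraries alone, and no test of them is read. None of the 16 was at 0 in all knockout libraries, although Aif1, picked out after its counts were seen, had 0 counts in CRE3. Lyz2, the macrophage lysozyme, was at 229 ± 9.25 CPM in knockout cells and 1748 ± 24.9 CPM in wild-type cells. Per 1000 CPM of these markers, Il2rg came to 4.45 to 7.81 CPM in knockout cells and 3.86 to 4.25 CPM in wild-type cells. The part of the macrophage markers in the value of Il2rg was not tested. The lymphocyte markers with a row summed to 0 to 0.172 CPM in knockout cells and 0.162 to 0.213 CPM in wild-type cells, and 4 of these 5 had no count in any knockout library.

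Stat6, the transcription factor downstream of both receptors, differed least. It had 152, 140 and 151 CPM in CRE1, CRE2 and CRE3 and 108, 108 and 110 CPM in the wild-type libraries, so the groups did not overlap. The log2 fold change was 0.44 (SE 0.039) with TMM scaling and 0.23 with total counts alone, so its size depends on the scaling while its direction did not turn in any setting tried.

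**Figure D1:**
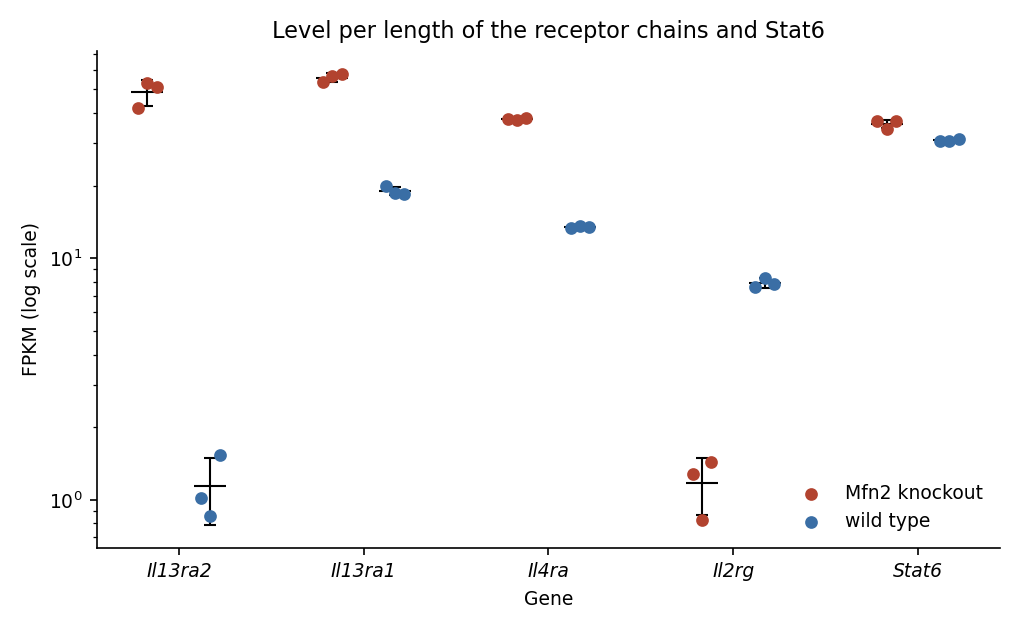
FPKM on a log axis for each gene, with points for the 3 Mfn2 knockout libraries left of the 3 wild-type libraries and bars for the mean ± SD. Il13ra2 lies at 48.7 FPKM in knockout cells and near 1.14 FPKM in wild-type cells, Il2rg is the one gene lower in knockout cells, and the groups lie closest for Stat6.

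The order of the levels per length was different in the groups. In the knockout the order from high to low was Il13ra1 (55.9 ± 2.29 FPKM), Il13ra2 (48.7 ± 6.16 FPKM), Il4ra (37.6 ± 0.445 FPKM), Stat6 (34.4 to 36.9 FPKM) and Il2rg (1.18 ± 0.314 FPKM). In the wild type it was Stat6 (30.7 ± 0.341 FPKM), Il13ra1 (19.0 ± 0.735 FPKM), Il4ra (13.5 ± 0.133 FPKM), Il2rg (7.90 ± 0.366 FPKM) and Il13ra2 (1.14 ± 0.354 FPKM). Each of the 3 libraries of a group showed its group's order and no neighbours overlapped in range, but in knockout cells the lowest Il4ra value, 37.2 FPKM, and the highest Stat6 value, 36.9 FPKM, were close. Among all tested genes the knockout level of Il13ra2 lay above 92.4% and its wild-type level above 25.3%, and for Il2rg the shares were 30.0% in knockout cells and 60.8% in wild-type cells.

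Set against each signalling gene, the decoy gained ground in every library. The FPKM ratio of Il13ra2 to Il13ra1 was 0.781, 0.942 and 0.882 in CRE1, CRE2 and CRE3, against 0.052, 0.046 and 0.083 in the wild-type libraries. The ratio to Il4ra was 1.11, 1.43 and 1.34 in the knockout libraries and 0.077, 0.063 and 0.115 in the wild-type libraries, so the decoy transcript outnumbered Il4ra per length in each knockout library and in no wild-type library. The ratio to Stat6 averaged 1.35 ± 0.213 in knockout cells and 0.037 ± 0.011 in wild-type cells, and the ratio to Il2rg 44.2 ± 17.6 and 0.145 ± 0.047 in the same groups (SD, n = 3 each). The fitted log2 fold change of Il13ra2 exceeded the median of the 4 signalling genes by 4.56.

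Of the transcripts for chains that bind IL-13 directly, Il13ra1 and Il13ra2, the decoy made up 46.4% ± 2.36 in knockout cells and 5.67% ± 1.77 in wild-type cells (SD of FPKM shares, n = 3 each). The single libraries gave 43.8%, 48.5% and 46.9% in knockout cells and 4.91%, 4.41% and 7.69% in wild-type cells. Of the transcripts for the alternative partners of Il4ra, Il13ra1 and Il2rg, the gamma chain made up 2.06% ± 0.543 in knockout cells and 29.4% ± 1.60 in wild-type cells. Both shares were separated between the groups, in opposite directions. They are shares of transcripts and say nothing of receptor protein, of soluble forms or of which cells hold the chains.

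**Figure D2:**
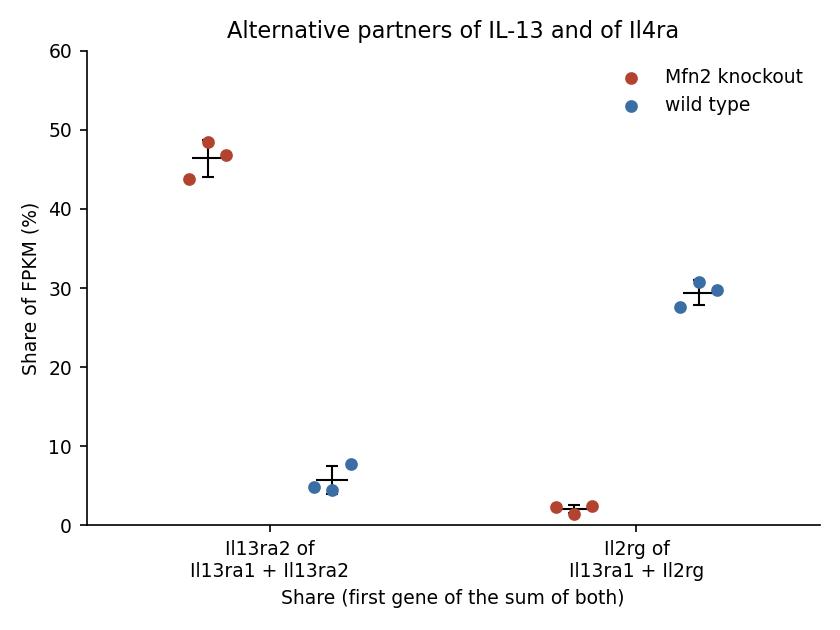
Share of FPKM in percent for the decoy among the IL-13 binding chains and for Il2rg among the partners of Il4ra, with points for libraries and bars for the mean ± SD. The 3 Mfn2 knockout libraries, left of the wild type, sit at 43.8% to 48.5% for Il13ra2 and at 1.44% to 2.41% for Il2rg.

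Few of the cytokines that engage these chains or act beside them could be tested. Il4, Il13 and Il9 were not analysed here, having no row in the table, in which every row has at least 1 count. Il5 and Il25 had too few counts to be tested. Of the alarmins that start type 2 responses, Tslp rose to 5.70 ± 1.03 CPM in knockout cells, against 2.08 ± 0.747 CPM in wild-type cells (SD, n = 3 each), with a log2 fold change of 1.45 (SE 0.233, edgeR adjusted p = 5.86e-05). Il33 was at 7.30 ± 1.27 CPM in knockout cells and 7.86 ± 0.696 CPM in wild-type cells, and the difference did not pass the test (adjusted p = 0.492). It was called lower with total counts alone (adjusted p = 0.0432) and with limma on filtered log2(FPKM + 1) (adjusted p = 0.046). Crlf2, the TSLP receptor chain, named after its value was seen, rose by 0.36 on the log2 scale (adjusted p = 5.72e-04), a call that was lost with total counts alone (adjusted p = 0.083).

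The gene of another ligand of Il13ra2 was strongly higher. Chil1, the table's name for Chi3l1, encodes a secreted chitinase-like protein that binds IL-13Rα2 and is made by chondrocytes and synovial cells in arthritis. It rose 5.75-fold, to 3634, 3599 and 3512 CPM in libraries CRE1 to CRE3, against 616, 625 and 628 CPM in the wild-type libraries (log2 fold change 2.52, SE 0.024, edgeR adjusted p = 3.60e-19). Its groups stood far apart and the libraries within a group lay close together. Tmem219, the membrane protein that serves as co-receptor of IL-13Rα2 for this ligand, had 9.46 ± 0.439 CPM in knockout cells and 11.6 ± 1.45 CPM in wild-type cells (SD, n = 3 each). It fell by 0.29 on the log2 scale (adjusted p = 0.0236), a call that was lost on leaving out CRE2 (adjusted p = 0.0539), CRE3 (0.0826) or the first wild-type library (0.147), and with DESeq2 on all 6 (0.0611).

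**Figure D3:**
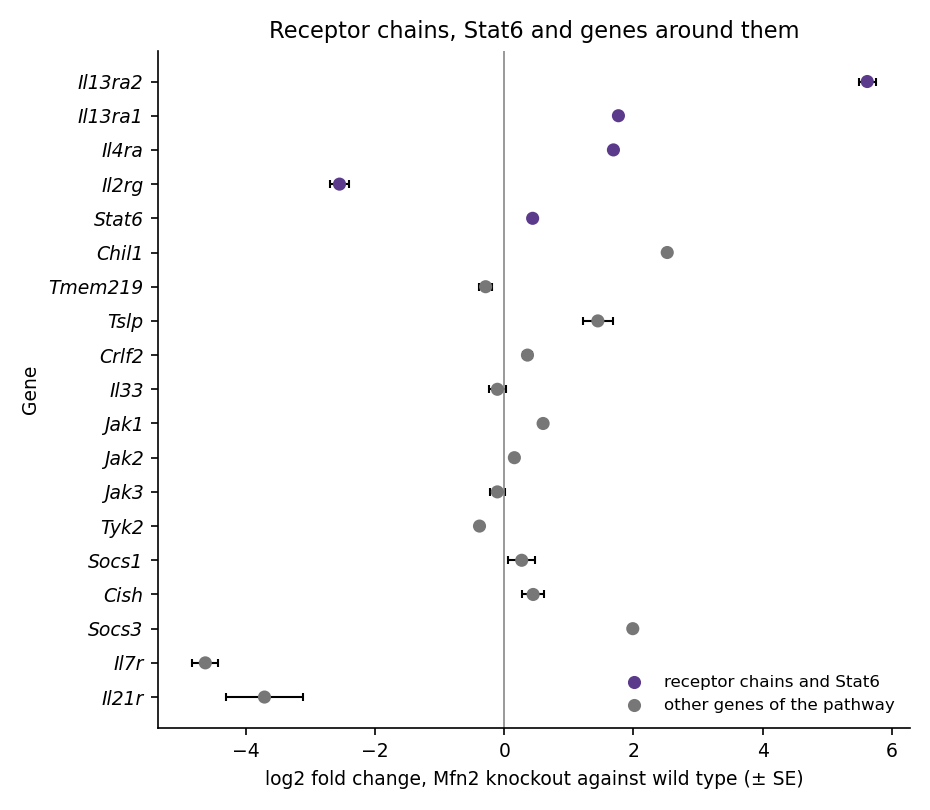
Log2 fold change of Mfn2 knockout against wild type with its SE from edgeR, for the receptor chains and Stat6 and for genes around them. Il13ra2 at 5.62 and Chil1 at 2.52 lie to the right, the 4 kinases from Jak1 to Tyk2 lie between 0.60 and −0.38, and Il7r at −4.63 lies farthest to the left.

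In the list of other receptors of the common gamma chain family, which also holds the TSLP receptor chain Crlf2, 4 genes were tested. Of these, 3 were called lower, where 32.1% of all tested genes were. Among the 3, Il21r and Il7r passed the filter through their wild-type libraries, and their knockout libraries by themselves would not have passed it. Nothing is therefore read from the count of 3. Il7r, the IL-7 receptor chain, fell to 0.341 ± 0.108 CPM in knockout cells, against 8.45 ± 0.515 CPM in wild-type cells (log2 fold change −4.63, SE 0.202), or −1.56 on log2(FPKM + 1). It had 8, 10 and 14 counts in CRE1, CRE2 and CRE3, and no test of it is read. Il21r had 0, 4 and 2 counts in CRE1, CRE2 and CRE3 against 30, 44 and 37 counts in the wild-type libraries, and no test of it is read. Il15ra fell by 0.49 on the log2 scale (edgeR adjusted p = 3.45e-04), and Crlf2 was called higher, as given above. Macrophage markers fell over the same libraries, as given above.

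The kinases and adaptors moved in both directions. Jak1, the kinase bound to Il4ra, rose 1.52-fold, to 493 ± 10.8 CPM in knockout cells, against 325 ± 3.16 CPM in wild-type cells (log2 fold change 0.60, SE 0.028, edgeR adjusted p = 3.37e-11). Tyk2, which sits on Il13ra1, fell by 0.38 on the log2 scale, with 20.4 ± 0.893 CPM in knockout cells and 26.5 ± 0.615 CPM in wild-type cells (adjusted p = 4.64e-05). Jak2 was at 48.6 ± 4.34 CPM in knockout cells and 43.6 ± 1.10 CPM in wild-type cells, with overlapping libraries. Its log2 fold change of 0.16 was called with TMM scaling (adjusted p = 0.0314) and turned to −0.052 with total counts alone. The call was also lost on leaving out CRE2 (adjusted p = 0.0812), CRE3 (0.0923), WT2 (0.0792) or WT3 (0.102), the wild-type libraries 2 and 3. With upper-quartile factors it was lost too (log2 fold change 0.066, adjusted p = 0.346). Jak3, the partner of the gamma chain, had 6.66 ± 0.667 CPM in knockout cells and 7.19 ± 0.315 CPM in wild-type cells, a log2 fold change of −0.11 that did not pass the test (adjusted p = 0.428) but did with total counts alone (−0.32, adjusted p = 0.0229). Jak3 was also called lower with limma on filtered log2(FPKM + 1) (adjusted p = 0.0192) and on filtered log2(FPKM + 0.1) (0.0237). Irs1, the adaptor through which IL-4 also reaches PI3 kinase, fell by 0.98 on the log2 scale (adjusted p = 2.46e-11), and Pik3r1, the regulatory PI3 kinase subunit, fell by 0.56 (adjusted p = 6.39e-10). Of the 11 genes in this list, 3 were called higher, 5 lower and 3 not called, where 62.7% of all tested genes were called. With total counts alone Jak1 stood at 0.39 and Tyk2 at −0.59.

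Among the other STAT genes, 3 of 5 tested were called higher, where 30.7% of all tested genes were. Stat3, the factor of IL-6 type cytokines, had 310 ± 5.06 CPM in knockout cells and 218 ± 4.19 CPM in wild-type cells, a log2 fold change of 0.50 (SE 0.030, edgeR adjusted p = 7.31e-10), close to that of Stat6. Stat5a rose by 0.38 on the log2 scale (adjusted p = 9.05e-06). With total counts alone Stat3 stood at 0.29 and Stat5a at 0.17. Of the cofactors of STAT6, 3 of 5 were called lower and none higher, with 62.7% of all tested genes called either way. With total counts alone, where 7627 of all 15028 genes were called lower, all 5 were called. Parp14, a known coactivator of STAT6, fell by 0.62 on the log2 scale (adjusted p = 6.18e-08), Ncoa1 fell by 0.34 (adjusted p = 2.63e-04) and Crebbp was at −0.13 (adjusted p = 0.0186), a call lost on leaving out CRE2 (adjusted p = 0.0695), CRE3 (0.0898) or the second wild-type library (0.0656), and with DESeq2 on all 6 (0.0923).

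Negative regulators split in direction. Of 11 tested, 7 were called higher and 3 lower, where 30.7% and 32.1% of all tested genes were. Socs3, a feedback inhibitor of STAT3 signalling, rose 3.97-fold, to 154 ± 7.27 CPM in knockout cells, against 38.9 ± 0.961 CPM in wild-type cells (log2 fold change 1.99, SE 0.045, edgeR adjusted p = 3.68e-15). Ptpn2, a phosphatase of JAKs and STATs, named after its value was seen, rose by 1.53 on the log2 scale (adjusted p = 2.09e-12). The largest falls were those of Inpp5d (−5.37, SE 0.113, adjusted p = 1.73e-15) and Ptpn6 (−4.35, SE 0.155, adjusted p = 1.06e-12), phosphatases known mainly from blood cells, with Inpp5d at −2.61 on log2(FPKM + 1), and the macrophage markers fell in the same libraries. Socs1 and Cish are feedback genes of cytokine receptors. Socs1 was at 2.71 ± 0.645 CPM in knockout cells and 2.26 ± 0.097 CPM in wild-type cells, which did not pass the test (adjusted p = 0.266), and Cish at 4.87 ± 0.869 and 3.57 ± 0.648 CPM in the same groups (log2 fold change 0.45, adjusted p = 0.0350). The call for Cish was lost without CRE3 (adjusted p = 0.141), without wild-type library 1 (0.137) or 2 (0.101), and with total counts alone (0.238). It was also lost with upper-quartile factors (0.083) and with limma on unfiltered log2(FPKM + 1) (0.411).

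Genes known to respond to IL-4 and IL-13 moved in both directions. Of the STAT6 targets of alternatively activated macrophages, 10 of the 17 genes with a row were tested, and 1 was called higher and 7 lower, where 30.7% and 32.1% of all tested genes were, with a median log2 fold change of −1.50. Among the 7, Mgl2, Clec10a and Egr2, named after their counts were seen, passed the filter through their wild-type libraries alone. No test of these genes is read, and nothing is read from the count of 7. Mrc1, the mannose receptor, which is also on the macrophage marker list, fell to 8.38 ± 0.457 CPM in knockout cells, against 218 ± 6.28 CPM in wild-type cells (adjusted p = 1.05e-18). Pparg fell by 1.51 on the log2 scale (adjusted p = 3.38e-08) and Klf4 rose by 0.54 (adjusted p = 1.02e-09), or 0.33 with total counts alone. Arg1, Retnla and Chil3, the best known mouse targets, stood at under 1 CPM in every library and were not tested.

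In the list of responsive genes of stromal and epithelial cells, 3 of 7 tested were called higher and 2 lower, where 62.7% of all tested genes were called either way, with a median of −0.019. Serpinb2, a serpin induced by IL-13 in human airway epithelium, rose by 5.00 on the log2 scale (SE 0.142, edgeR adjusted p = 6.19e-14), and the matrix protein Tnc rose by 1.55 (SE 0.033, adjusted p = 2.13e-15). Postn, the matrix protein periostin and a common marker of IL-13 activity, fell to 122 ± 16.0 CPM in knockout cells, against 266 ± 5.77 CPM in wild-type cells (adjusted p = 4.68e-10). The eotaxin Ccl11, named after its value was seen, had 34, 58 and 33 counts in CRE1, CRE2 and CRE3 against 4, 1 and 4 counts in the wild-type libraries. It passed the filter through its knockout libraries alone, and no test of it is read.

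Over all 88 pathway genes looked up, 63 were tested, 22 were called higher (where 30.7% of all tested genes were) and 27 lower (32.1%), and 14 were not called. Their median log2 fold change was −0.107. These counts include the genes said above to have passed the filter through the libraries of a single group. Markers of other cells moved in both directions over the same libraries, and their part in the values above was not tested. Neutrophil markers summed to 6.05 to 6.75 CPM in knockout cells and 1.55 to 1.92 CPM in wild-type cells, a sum held mostly by Camp and S100a8 in knockout cells. Both were higher there and passed the filter through their knockout libraries alone. Csf3r was lower (log2 fold change −1.78) and passed it through its wild-type libraries alone. No test of these genes is read. S100a9 was not called (−0.68, edgeR adjusted p = 0.490), and Ly6g, Ngp, Mpo and Elane had too few counts to be tested. All of these but Camp were named after their values were seen. Camp was at 3.48 ± 0.442 CPM in knockout cells and 0.179 ± 0.034 CPM in wild-type cells. Mast cell and basophil markers summed to 3.09 to 3.89 CPM in knockout cells and 0.891 to 1.33 CPM in wild-type cells. Of the 2 tested, the basophil protease Mcpt8 was called higher (3.19 ± 0.394 CPM in knockout cells and 0.438 ± 0.145 CPM in wild-type cells). Kit, named after its value was seen, was lower (−1.73), with 0, 11 and 6 counts in CRE1, CRE2 and CRE3. It passed the filter through its wild-type libraries, and no test of it is read. Fibroblast markers summed to 29240 to 30290 CPM in knockout cells and 22480 to 22680 CPM in wild-type cells, with 5 of 9 called higher, Dcn among them, and 3 lower. Chondrocyte markers summed to 2969 to 3095 CPM in knockout cells and 8579 to 8747 CPM in wild-type cells.

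**Figure D4:**
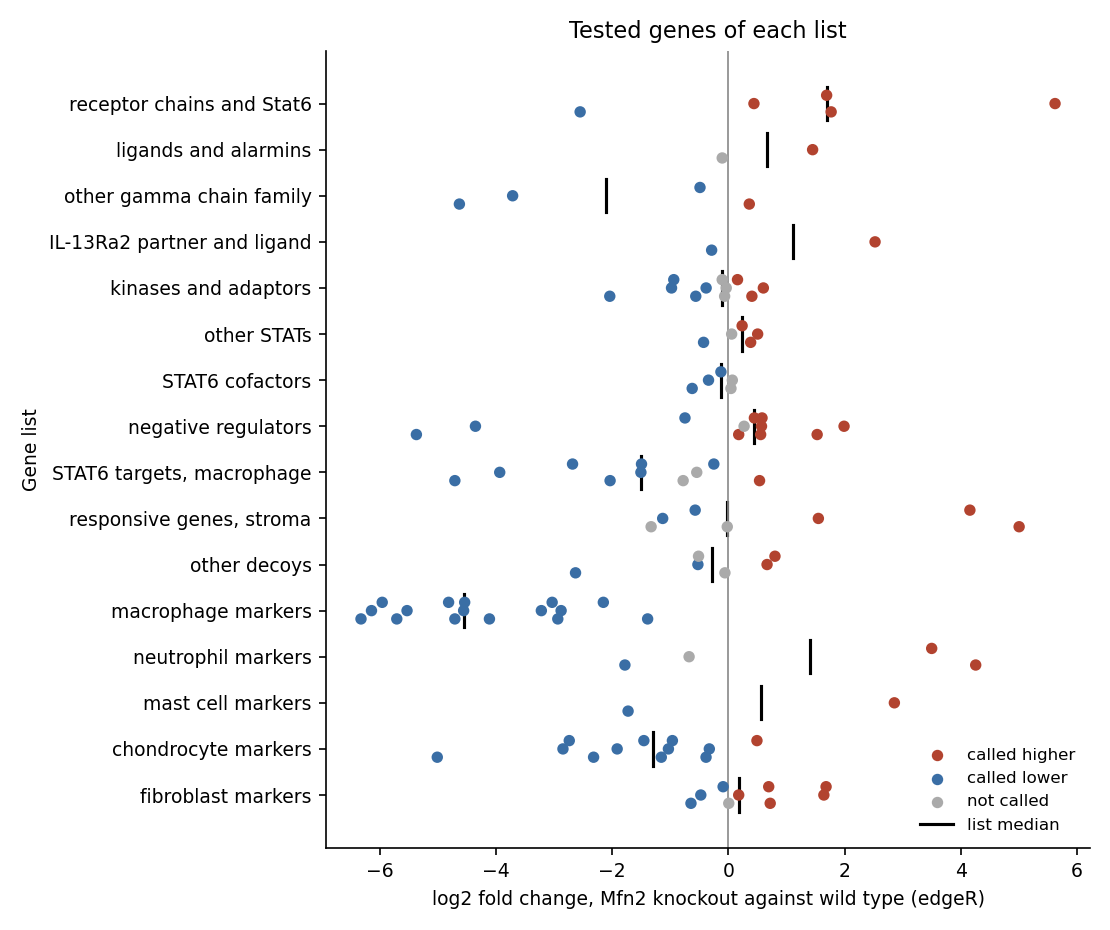
Log2 fold change of Mfn2 knockout against wild type for every tested gene of each list, with red points for genes called higher, blue for called lower and grey for not called, and a black line at the list median. The receptor chains and Stat6 spread from −2.55 to 5.62, and the macrophage markers all lie below 0 with a median of −4.55.

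The genes whose profiles over the 6 libraries lay closest to each of the 5 were found by Euclidean distance between log2 CPM values after centring each gene. Near Il13ra2 were Tnfrsf9 (distance 0.583), a costimulatory receptor of the TNF family, the cytokine Il6 (0.635) and Saa1 (0.725), whose reads can be exchanged with those of a near-identical copy. Tnfrsf9 had 5, 4 and 12 counts in wild-type libraries 1, 2 and 3, and passed the filter through its knockout libraries. Its log2 fold change ran from 2.08 to 6.35 over the settings tried, and no test of it is read. Near Il13ra1 were the chemokine Ccl7 (0.063), Dpy19l1 (0.063) and the nucleotidase Nt5e (0.080). Near Il4ra were the glucosylceramide synthase Ugcg (0.043), the cholesterol hydroxylase Ch25h (0.072) and the adenylate kinase Ak4 (0.072). Near Il2rg were Gpsm3 (0.363), the fibroblast growth factor receptor Fgfr3 (0.393) and Bcl2a1b (0.394), which has near-identical copies. Near Stat6 were the histone deacetylase Hdac5 (0.040), the phosphatase Inppl1 (0.042) and the kinase Stk11 (0.048). With 2 groups of 3 libraries the distance reflects mostly the size of the difference between groups, and the larger distances of Il13ra2 and Il2rg go with larger differences and lower counts.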

How the data were processed

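The authors deposited whole-number read counts per gene and FPKM values for 23867 gene symbols in 6 columns. Per the submitters' processing notes, fastp, HISAT2 and HTSeq were used with GRCm39, no versions named. The sources used here give neither strand setting nor annotation release. Deposited FPKM values followed from the counts, the column totals and a fixed length for each gene (100% of values with at least 10 counts, within 0.1%). The wild-type columns matched titles by name. The knockout columns showed their group but not their sample. Within groups, all library pairs differed beyond sampling noise (chi-square per degree of freedom 3.19 to 8.09), so none was treated as a repeat deposit of another, which does not show that they are separate animals.

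The test was edgeR's quasi-likelihood F test (version 4.0.16, under R 4.3.3) on deposited counts, with TMM factors and group as the only term (filterByExpr with a minimum count of 10, Benjamini-Hochberg adjustment over 15028 genes, calls under 0.05), a procedure checked on simulated counts. Adjusted p-values in the text come from this test unless another is named. Fold changes are knockout against wild type. The 5 genes and all lists were chosen with earlier results of these data known. Named were the 5 genes, the 3 genes of each pathway list with the smallest p, 1 per marker list, a few fixed by role (Il4, Il13, the JAKs, Stat3, Socs1, Cish, Tmem219, Chi3l1), the 3 nearest profiles per gene (among genes of at least 1 CPM, log2 CPM with a prior count of 2) and Mfn2. Chi3l1 was matched as Chil1 through a RefSeq synonym. Some genes that this rule or the marker lists hold are not reported here. Alternatives used DESeq2 1.42.0, limma 3.58.1 and other scalings, filters and library sets.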

Additional observations from a re-analysis of the deposited data

How the results depend on the processing

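The direction of Il13ra2, Il13ra1, Il4ra, Il2rg and Stat6 was the same in all 17 other settings. The log2 fold changes were 4.54 to 5.90 for Il13ra2, 1.51 to 1.80 for Il13ra1, 1.42 to 1.72 for Il4ra, −2.76 to −2.04 for Il2rg and 0.22 to 0.49 for Stat6. The 5 genes were chosen by their fold changes in this contrast, so these ranges describe the processing and are no test of the genes. With single libraries left out they were 5.45 to 5.90, 1.75 to 1.80, 1.68 to 1.72, −2.71 to −2.31 and 0.42 to 0.49 in the same order. The excess of Il13ra2 over the median of the signalling genes was 3.72 on log2(FPKM + 1) with or without the filter, where the pseudocount draws in the low wild-type values, and 4.39 to 4.83 with single libraries left out, the highest without wild-type library 3. Taken from counts rather than FPKM, an alternative added after seeing the data, the difference in the Il13ra2 share was 33.7 percentage points in place of 40.7 and that of the Il2rg share −14.8 in place of −27.3, since the genes differ in length. With single libraries left out they were 39.7 to 42.0 and −28.2 to −26.6.

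Genes called higher numbered 2789 with total counts alone, 2354 on log2(FPKM + 1), 2345 on log2(FPKM + 0.1) and 2706 on log2(FPKM + 1) without a filter, and genes called lower 7627 with total counts alone and 7328 on unfiltered log2(FPKM + 1). With single libraries left out they numbered 4264 to 4773 and 4396 to 4774. Jak2 turned to −0.052 with total counts alone, to −0.046 on log2(FPKM + 1) with or without the filter and to −0.056 on log2(FPKM + 0.1). On filtered log2(FPKM), which drops genes with a mean under 1 FPKM, 5 STAT6 cofactors and 4 macrophage STAT6 targets were called. Mgl2, Clec10a, Ppargc1b and Egr2, called lower in the main fit, were not tested there. The share of all genes called in these settings is not given, so nothing is read from these counts. The numbers at the end of the column names did not pair the libraries (correlations of deviations −0.086, 0.055 and −0.095). With them as a replicate block, 4437 genes were called higher and 4657 lower and Il13ra2 stood at 5.62. Among the 5 genes, the fewest counts stood behind the wild-type values of Il13ra2 (88 to 161) and the knockout values of Il2rg (52 to 77).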

Other observations

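A list of 8 genes held other antagonists and decoys of cytokines, and receptor chains with a soluble form. Of these, 6 were tested, and 2 were called higher and 2 lower, where 30.7% and 32.1% of all tested genes were. The 2 higher were Il6st and Il1rap, chains whose membrane forms signal, and no plain antagonist or decoy in the list was called higher. Il1rap, named after its value was seen, rose by 0.80 on the log2 scale (edgeR adjusted p = 2.97e-08). Il1rn, the IL-1 receptor antagonist, fell to 147 ± 3.76 CPM in knockout cells, against 909 ± 6.53 CPM in wild-type cells (log2 fold change −2.63, SE 0.030, edgeR adjusted p = 1.46e-18). Tnfrsf11b, the decoy receptor osteoprotegerin, fell by 0.52 on the log2 scale, with 405 ± 4.11 CPM in knockout cells and 582 ± 5.29 CPM in wild-type cells (adjusted p = 7.16e-11). Il6st, whose soluble form binds the complex of IL-6 and its receptor and whose membrane form signals, rose by 0.67 (adjusted p = 1.50e-11). The IL-1 decoy Il1r2 was at 0.348 ± 0.215 CPM in knockout cells and 0.509 ± 0.142 CPM in wild-type cells and did not pass the test (adjusted p = 0.389), a gene picked out once its values were known. The 16 macrophage markers also fell, and their part in the fall of Il1rn was not tested.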
